A study of Rattus norvegicus with 29 samples.

Results

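The genes described here code for the protein kinases A and C (PKA and PKC), the mitogen-activated protein kinases (MAP kinases) with the kinases and scaffolds above them, and the serine/threonine phosphatases PP1 to PP6. A probe set, the group of short array probes that reports 1 transcript, was taken when its single annotated symbol began with Prka, Prkc and an isoform letter, Mapk and a digit, Map2k, Map3k or Ppp1 to Ppp6, with Ppp1r1b and Ppp1r18 left out. This gave 132 probe sets for 105 genes, out of 15866 probe sets on the array without its control probe sets. Of these, 100 probe sets for 86 genes had a mean log2 signal of at least 7.26, the 40th percentile of all probe sets, and were tested among 9520. The other 32 had mean log2 signals from 4 to 7.21 and were not tested. The prefix Prka also takes in the AMP-activated kinase subunits (7 probe sets, 4 of them tested), which are not part of PKA. Mapk3 and Mapk10 had no probe set with that symbol alone and are not analysed here.

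RNA came from the basolateral amygdala of rats and was hybridised to 29 one-colour arrays, 1 per sample. The 5 groups were baseline controls (9 arrays) and, 6 h after treatment, rats given pain (5), isoflurane (5), fear conditioning (5) or fear conditioning under isoflurane (5). Pain is part of the conditioning procedure, and isoflurane is an inhaled general anaesthetic that also impairs memory. The labels used here give neither the strain, the age or the sex of the rats, nor the dose of isoflurane or the form of the pain stimulus. Rat numbers are given for 15 arrays (the pain group and both conditioning groups), so the p-values measure the spread between arrays, which are not stated to be separate animals in every group. The pain group has a run of rat numbers of its own, while those of both conditioning groups are interleaved. Whatever goes with the numbering cannot be told apart from conditioning minus pain. The labels give the labelling kit of the 9 baseline and the 5 isoflurane arrays and none for the other 3 groups, so a change of kit and a difference between those groups cannot be told apart. The 5 isoflurane arrays were deposited under later sample numbers than the rest. Whatever goes with that cannot be told apart from a difference between isoflurane alone and another group.

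PKA is held inactive by its regulatory subunits until cyclic AMP releases the catalytic subunits, and PKC isoforms are switched on by diacylglycerol, by calcium, or, in the atypical isoforms, by protein partners. In the MAP kinase cascades a MAP3K phosphorylates a MAP2K, which phosphorylates an ERK, JNK or p38 kinase. PP1, PP2A and the calcium-dependent phosphatase calcineurin remove phosphates from many of the same substrates. In the amygdala these enzymes act on existing proteins during fear learning, and PKA and the ERK pathway also act on the transcription factor CREB, which binds the cyclic AMP response element (CRE). Phosphorylation and enzyme activity were not measured here; the arrays report transcript levels.

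The full CRE was looked for in the promoters of the members because CREB lies downstream of several of these kinases. RefSeq windows of 300 bases (250 before and 50 after the gene start, build GRCr8) were matched by symbol to 89 of the 105 genes, in 93 windows. The letters TGACGTCA, which read the same on both strands, occurred in 5 of the 93 windows (5.38%) and in 612 of all 33469 windows of the same length (1.83%). The 5 windows hold 4 different sites, since genes that start in opposite directions share the one at Ppp2r2d. The shorter site TGACG, on either strand and counted also inside the full element, occurred in 32 of the 93 (34.4%) and in 21.2% of all windows. The stretches around 4 of the full matches are shown 5′ to 3′ on the strand of the gene, with the element in capitals, so that the context and the distance from the gene start can be read beside the signals of the same genes. They lie at chr1:203095497-203095544 (Ppp2r2d, plus strand), chr10:36858964-36859011 (Ppp2ca, plus), chr1:105139635-105139682 (Ppp1r15a, minus) and chr1:78362839-78362886 (Ppp1r12c, plus).
Ppp2r2d: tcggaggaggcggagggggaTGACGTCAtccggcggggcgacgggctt
Ppp2ca: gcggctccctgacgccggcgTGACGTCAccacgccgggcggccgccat
Ppp1r15a: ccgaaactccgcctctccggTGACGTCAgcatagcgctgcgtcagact
Ppp1r12c: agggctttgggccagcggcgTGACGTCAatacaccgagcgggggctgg
The element begins 65 bases before the start of Ppp2r2d, a B-type subunit of PP2A, and 53 before that of Ppp2ca, a catalytic subunit of PP2A. It begins 66 bases before the start of Ppp1r15a, the stress-induced PP1 subunit that directs PP1 to eIF2α, and 69 before that of Ppp1r12c, a myosin phosphatase targeting subunit. In conditioning minus baseline the log2 differences of the 4 genes were -0.16 for Ppp2r2d, 0.022 for Ppp2ca, 0.054 for Ppp1r15a and -0.16 for Ppp1r12c. None passed the test. A match of letters is a description of the window and does not show binding.

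Signals are given as log2 of the quantile-normalised intensity, so a difference of 1 is a doubling, and differences carry their standard error (SE) from the limma fit on all 29 arrays. The trimmed mean of the deposited signals was 500.08 to 500.12 on every array, and array medians lay between 210.7 and 292.2, the highest being pain replicate 3. The number of arrays limits the precision: the median SE of a member's difference was 0.118 against baseline, 0.134 between groups of 5 and 0.178 for the interaction. Of 9 marker genes of excitatory projection neurons, 6 could be tested, and the vesicular glutamate transporter Slc17a7 had mean signals at baseline of 3332 and 528.1 in its probe sets, so RNA of such neurons was present. The striatal gene Penk, at 5118, was present too, and these markers do not set the basolateral amygdala apart from other forebrain tissue. Fewer cells of a type and less RNA per cell cannot be told apart in such bulk tissue.

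No member changed past the threshold in any comparison. After Benjamini-Hochberg adjustment over 9520 probe sets, limma called 0 of the 100 members in each of the 7 comparisons of 2 groups, in the interaction and in the F test over the 5 groups. The background of such calls was equally low: 0% of all probe sets in pain minus baseline, conditioning minus baseline, conditioning under isoflurane minus baseline, conditioning minus pain, conditioning under isoflurane minus conditioning, conditioning under isoflurane minus isoflurane, the interaction and the F test, and 0.0105% (1 probe set) in isoflurane minus baseline. The lowest adjusted p of a member was 0.37 in pain minus baseline, 0.922 in isoflurane minus baseline, 0.415 in conditioning minus baseline and 0.624 in conditioning under isoflurane minus baseline. The sizes were small as well: between 87 and 94 of the 100 members differed from baseline by less than 0.25 in the 4 groups, against 85.4% to 91.0% of all probe sets. Comparisons with baseline share the 9 baseline arrays, so their values are given side by side and are not independent.

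At an unadjusted limma p under 0.05 the members were counted against all 9520 probe sets. Pain minus baseline had 2 higher members where 4.33% of all probe sets were higher, and 8 lower where 4.63% were lower. Isoflurane minus baseline had 0 higher (2.64% of all) and 8 lower (2.74%). Conditioning minus baseline had 5 higher (5.12%) and 2 lower (5.03%), which is at or under the background on both sides. Conditioning under isoflurane minus baseline had 4 higher (3.25%) and 4 lower (3.26%). Between treated groups, conditioning minus pain had 8 higher (4.74%) and 2 lower (4.31%), and conditioning under isoflurane minus conditioning had 2 higher (1.79%) and 2 lower (1.9%). Conditioning under isoflurane minus isoflurane had 3 higher (1.88%) and 1 lower (2.12%). The interaction had 4 higher (2.38%) and 2 lower (2.41%), and the F test had 7 members where 7.35% of all probe sets passed. The counts lay furthest above the background on the lower side after isoflurane and after pain and on the higher side in conditioning minus pain, and by 1 or 2 members on the higher side in the interaction and in conditioning under isoflurane minus isoflurane. They change with the processing and with single arrays. With the replicate number as a block, the total fell from 8 to 2 members after isoflurane and from 10 to 4 after pain. That fit also left out baseline replicates 6 to 9, whose numbers occur in no other group.

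**Figure D1:**
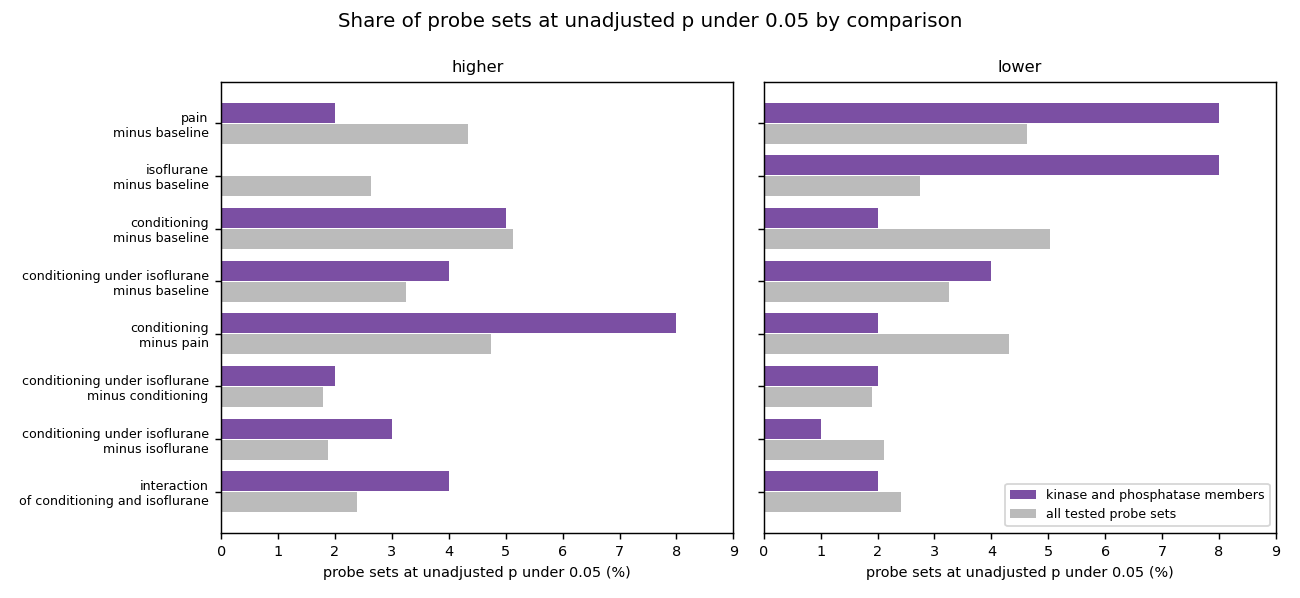
Percent of the 100 tested kinase and phosphatase probe sets (purple) and of all 9520 tested probe sets (grey) at unadjusted limma p under 0.05, higher on the left and lower on the right, for 7 comparisons of 2 groups and the interaction. The purple bars are longest for lower signals after pain and after isoflurane (8% each) and for higher signals in conditioning minus pain (8%).

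With all arrays the median member differed from baseline by -0.047 after pain, -0.049 after isoflurane, -0.034 after conditioning and -0.005 after conditioning under isoflurane, where the medians of all probe sets were -0.003, 0.003, -0.0005 and 0.004. In the same order 34, 39, 38 and 48 of the 100 members were higher than at baseline, against 49.2%, 51.0%, 49.9% and 51.1% of all probe sets. Without pain replicate 3 the median after pain was -0.015 with 41 members higher. Leaving out 1 array in turn gave medians from -0.015 to 0.012 after conditioning under isoflurane, with 45 to 58 members higher, so no direction held there. With arrays centred on their medians in place of quantile normalisation, 17, 26, 29 and 36 members were higher than at baseline in the same order. The share of all probe sets that was higher was not counted under this centring, so its counts of members stand without a background. The median of the members after pain was -0.181 with this centring, where that of all probe sets was -0.111. The same centring put 67 members higher in conditioning minus pain, in place of 53. In conditioning under isoflurane minus conditioning 67 members were higher (median 0.034), and in conditioning under isoflurane minus isoflurane 70 were (median 0.052), against 51.8% and 50.7% of all probe sets.

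**Figure D2:**
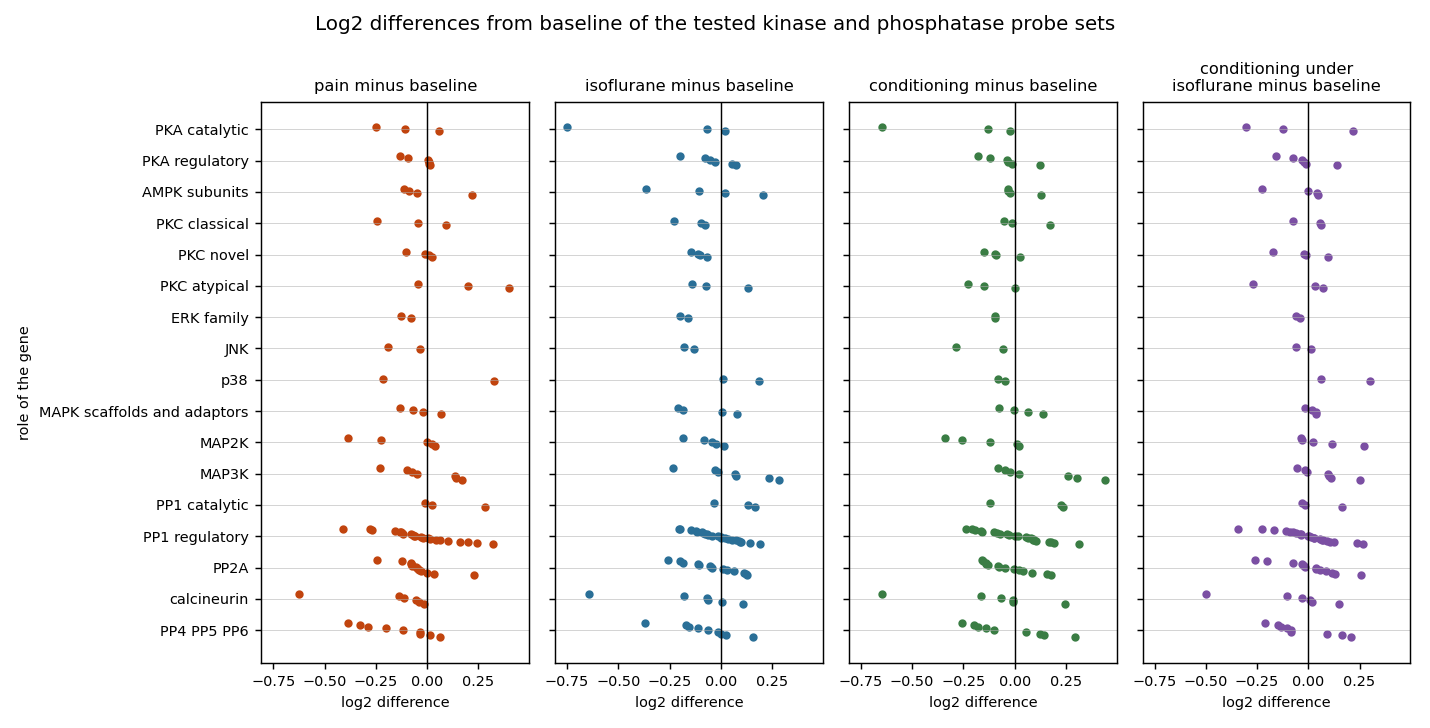
Log2 differences from baseline of the 100 tested probe sets (1 point each), in rows by the role of the gene and in 1 panel for each treated group. Most points lie within 0.25 of 0 (87 to 94 of 100), and the points farthest to the left belong to Prkacb among the PKA catalytic subunits and to Ppp3r1 in calcineurin.

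Among the catalytic subunits of PKA, the signal depended on which probe set was read. Prkacb, the beta catalytic subunit, had a bright probe set (1371835_at) and a dimmer one (1370746_at). On the bright one the arrays after conditioning under isoflurane stood at 12.65, 12.42, 12.72, 12.68 and 12.62, and those after conditioning at 12.07, 12.19, 12.44, 12.67 and 12.51. Baseline arrays ran from 12.07 through a median of 12.43 to 12.66. All 5 arrays after conditioning under isoflurane were at or above 12.42, but they overlapped both other groups. The difference was 0.22 from baseline (SE 0.091, adjusted p = 0.7096) and 0.24 from conditioning (SE 0.10, adjusted p = 0.9995) by limma. The former was 0.13 with arrays centred on their medians and 0.10 with the replicate block, which leaves out baseline replicates 6 to 9.

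The dimmer Prkacb probe set varied more than any other member, with a residual SD of 0.641 where the median member had 0.216. Its isoflurane arrays read 8.27, 5.85, 7.34, 7.65 and 8.00, and its baseline arrays 7.21 to 9.01 with a median of 8.30. The groups overlapped, and replicate 2 was by far the lowest. The difference was -0.75 (SE 0.33, adjusted p = 0.922), and -0.36 (SE 0.30) without isoflurane replicate 2. Conditioning arrays read 7.48, 8.04, 8.29, 7.40 and 6.41 (difference from baseline -0.65, SE 0.33, and -0.37 without replicate 5), while the bright probe set of the gene differed by 0.018 after isoflurane and by -0.023 after conditioning. The 2 probe sets thus gave no common difference from baseline for Prkacb after isoflurane or conditioning. Both were higher after conditioning under isoflurane than after conditioning, by 0.241 on the bright one and 0.345 (SE 0.37) on the dim one. The dim one stood at 0.064 there without conditioning replicate 5. Against isoflurane alone the values were 0.199 and 0.444, and the dim one stood at 0.051 without isoflurane replicate 2. Prkaca, the alpha catalytic subunit, differed from baseline by -0.11 after pain, -0.070 after isoflurane, -0.13 after conditioning and -0.12 after conditioning under isoflurane, each with p above the threshold.

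The regulatory subunits of PKA had residual SDs from 0.116 to 0.224, where the median member had 0.216. Over their 6 tested probe sets (Prkar1a with 3, Prkar1b, Prkar2a and Prkar2b) differences from baseline lay between -0.20 and 0.14 in all 4 treated groups, with 0 at an unadjusted p under 0.05. Prkar1a, the type I alpha subunit, averaged 12.42 ± 0.095 (SD, n = 9) at baseline on its brightest probe set, and 12.32 ± 0.11 after pain, 12.39 ± 0.10 after isoflurane, 12.41 ± 0.12 after conditioning and 12.41 ± 0.16 after conditioning under isoflurane (n = 5 each). Prkar2b, the type II beta subunit that is abundant in brain, averaged 10.23 ± 0.13 at baseline and 10.10 to 10.20 in the treated groups. The 4 tested subunits of AMP-activated kinase, the energy sensor caught by the shared prefix, had differences from -0.37 (Prkab1 after isoflurane) to 0.22 (Prkab1 after pain) and 0 at an unadjusted p under 0.05. Single arrays carried both: Prkab1 stood at -0.076 without isoflurane replicate 2 and at 0.080 after pain without baseline replicate 5.

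The classical PKC isoforms, which need calcium and diacylglycerol, were read by 3 probe sets. Prkcb averaged 11.99 ± 0.18 (SD, n = 9) at baseline on the brighter of its pair and 11.90 to 12.05 in the treated groups. Prkca averaged 7.87 ± 0.32 at baseline and 8.04 ± 0.15 after conditioning, where the arrays read 8.03, 8.29, 7.91, 7.93 and 8.06 within the baseline range of 7.29 to 8.20 except for replicate 2. After isoflurane all 3 classical and all 4 probe sets of the calcium-independent isoforms (Prkcd, Prkce, Prkch, Prkcq, which need diacylglycerol) were lower than at baseline, by 0.070 to 0.23, with 0 of the 7 at an unadjusted p under 0.05. After conditioning under isoflurane 3 of the same 7 were higher and 4 were lower than baseline.

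Atypical PKC, which lacks the diacylglycerol response, held the largest positive difference after pain. Prkci, the iota isoform, read 8.21, 8.31, 8.58, 7.72 and 7.89 after pain on probe set 1371203_at, and 7.38 to 8.10 at baseline with a median of 7.82. Replicates 1 to 3 of the pain group lay above all baseline arrays and the other 2 within their range. The difference was 0.40 (SE 0.15, adjusted p = 0.473), and 0.29 (SE 0.15) without pain replicate 3. Its other tested probe set, 1373047_at, read 9.79, 10.45, 10.75, 9.89 and 10.45 after pain against 9.82 to 10.50 at baseline, a difference of 0.20 that fell to 0.079 without replicate 3. In conditioning minus pain both probe sets of Prkci were negative, at -0.43 (SE 0.15, adjusted p = 0.463) and -0.40 (SE 0.17, adjusted p = 0.521), with 0 of 5 conditioning arrays above the pain mean on either. Without pain replicate 3 they were -0.31 and -0.29, and without conditioning replicate 4 the value on 1371203_at was -0.24. Prkcz, the zeta isoform, stood at 9.99 ± 0.23 (n = 5) after conditioning under isoflurane and 10.26 ± 0.20 (n = 9) at baseline, a difference of -0.27 (SE 0.12, adjusted p = 0.739).

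At the top of the MAP kinase cascades, Map3k1, the kinase MEKK1 upstream of JNK and ERK, gave the largest positive difference of a member after conditioning. It read 7.19, 7.96, 7.59, 7.70 and 7.82 after conditioning on probe set 1375673_at and 6.73 to 7.48 at baseline, with a median of 7.28. Conditioning replicates 2 to 5 lay above all baseline arrays and replicate 1 among them. The difference was 0.44 (SE 0.17, adjusted p = 0.424). Over the other probe set of Map3k1, 1368871_at, the difference from baseline was 0.26, and conditioning arrays (8.01, 7.65, 7.80, 7.91 and 7.72) did not overlap with pain arrays (7.47, 7.51, 6.90, 7.48 and 7.28). In that comparison 2 members did not overlap, where 1.13% of all probe sets did not. The difference between conditioning and pain was 0.49 (SE 0.17, adjusted p = 0.4658), and 0.38 without pain replicate 3. On 1375673_at that difference was 0.27, and 0.083 without pain replicate 3. After pain the probe sets differed from baseline in opposite directions, by 0.17 on 1375673_at and -0.23 on 1368871_at.

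Map3k20, the stress-activated kinase ZAK, read 9.17, 9.66, 9.01, 9.40 and 9.94 after conditioning, 9.49, 9.34, 9.45, 9.36 and 9.31 after conditioning under isoflurane, and 9.17, 9.19, 8.93, 8.92 and 8.98 after pain. Baseline arrays ran from 8.82 to 9.49 with a median of 9.11. The conditioning arrays, from 9.01 to 9.94, spread over the ranges of the pain arrays and of those after conditioning under isoflurane. Differences were 0.30 in conditioning minus baseline (SE 0.12, adjusted p = 0.424), 0.25 in conditioning under isoflurane minus baseline (SE 0.12, adjusted p = 0.743) and 0.40 in conditioning minus pain (SE 0.13, adjusted p = 0.456). Without conditioning replicate 5 the first of these was 0.18. The other tested MAP3K genes (Map3k3, Map3k7, Map3k11 and Map3k12) had differences from baseline between -0.23 and 0.14 and 0 at an unadjusted p under 0.05.

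Of the MAP2K kinases, the middle tier, all 5 (Map2k1, Map2k2, Map2k3, Map2k5, Map2k6) were higher after conditioning under isoflurane than after conditioning, with a median of 0.23, where 67 of all 100 members were higher. All 5 were also positive in the interaction (median 0.29), as were 69 of all members. In each of these 1 of 5 was at an unadjusted p under 0.05. That one was Map2k5, which activates ERK5. It read 9.23, 8.99, 9.28, 9.43 and 9.26 after conditioning under isoflurane, 9.17, 9.01, 9.06, 8.86 and 8.85 after conditioning, and 8.92, 8.77, 9.08, 8.73 and 9.13 after isoflurane alone. In the group under isoflurane 4 of 5 arrays exceeded every conditioning and isoflurane array. Baseline arrays of Map2k5 ran from 8.74 to 9.17, and the difference from them was 0.27 (SE 0.088, adjusted p = 0.624). It was 0.25 from conditioning (adjusted p = 0.9995) and 0.32 from isoflurane (adjusted p = 0.998), both with an SE of 0.10.

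Map2k3, an activator of p38, did not overlap between the 2 conditioning groups. Its arrays read 7.74, 7.89, 7.89, 7.76 and 7.73 under isoflurane against 7.03, 7.38, 7.38, 7.58 and 7.37 without, a difference of 0.45 with an SE of 0.24 (adjusted p = 0.9995). It was the only such member in that comparison, where 0.704% of all probe sets did not overlap. Map2k3 also showed how far 1 array could carry a value: its pain arrays read 7.84, 7.35, 5.84, 7.91 and 7.56, and the difference of -0.38 from baseline was -0.020 without replicate 3. Map2k1, the ERK kinase MEK1, averaged 12.02 ± 0.14 (SD, n = 9) at baseline and 11.90 to 12.06 in the treated groups.

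Of the 6 tested probe sets of ERK, JNK and p38 kinases, 2 were at an unadjusted p under 0.05 after isoflurane and 1 after pain, all of them lower. Mapk8, which codes for JNK1, read 9.80, 9.82, 9.68, 9.97 and 10.01 after isoflurane against 9.85 to 10.26 at baseline, with 3 of the 5 arrays below the baseline range. The difference was -0.18 (SE 0.087, adjusted p = 0.922). Mapk4 differed by -0.20 in the same comparison (adjusted p = 0.922), and Mapk6 and Mapk9 by -0.16 and -0.13. Without isoflurane replicate 2 the values were -0.17 for Mapk8, which then had an unadjusted p above 0.05, and -0.014 for Mapk9. Mapk14, p38 alpha, read 9.13, 9.11, 9.17, 9.20 and 8.86 after pain against 8.96 to 9.54 at baseline, a difference of -0.22 (SE 0.092, adjusted p = 0.502). Mapk12, p38 gamma, differed in the other direction after pain, by 0.32 (SE 0.16, adjusted p = 0.562).

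Mapk8ip1, the JNK scaffold JIP1, had the lowest p of any member after isoflurane. Its arrays read 10.82, 10.73, 10.80, 10.84 and 11.22, and the baseline arrays 10.98 to 11.20 with a median of 11.10. Replicates 1 to 4 lay below the whole baseline range and replicate 5 above it. The difference was -0.21 (SE 0.072, adjusted p = 0.922) on probe set 1387971_a_at, and -0.18 (SE 0.095) on 1386973_a_at. After conditioning under isoflurane the first of these read 11.18, 10.97, 11.20, 10.99 and 11.03, which is 0.19 above isoflurane alone (SE 0.082, adjusted p = 0.998).

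PP1 catalytic subunits differed among themselves after pain. Ppp1cc, the gamma subunit enriched in dendritic spines, read 11.45, 11.33, 11.49, 11.32 and 11.42 after pain, and 10.80 to 11.38 with a median of 11.22 at baseline. The pain arrays were closely grouped (SD 0.075) in the upper part of the baseline range or above it, while the baseline arrays had an SD of 0.206. The difference was 0.28 (SE 0.088, adjusted p = 0.37), the lowest adjusted p of all members in any comparison. It was 0.10 with arrays centred on their medians. With the replicate number as a block, and so without baseline replicates 6 to 9, it was 0.13. Ppp1cc differed from baseline by 0.13 after isoflurane, 0.22 after conditioning (adjusted p = 0.425) and 0.16 after conditioning under isoflurane, so 5 of 5 arrays after conditioning and 5 of 5 after conditioning under isoflurane stood above the baseline mean of 11.12. Ppp1ca and Ppp1cb, the alpha and beta subunits, differed by 0.021 and -0.013 after pain. Ppp1cb did not overlap between isoflurane (10.48, 10.46, 10.43, 10.80, 10.51) and conditioning under isoflurane (10.32, 10.38, 10.42, 10.40, 10.25), with a difference of -0.18 whose p did not reach the threshold. That was the single such member there, and 0.924% of all probe sets did not overlap.

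Ppp1r8, the nuclear inhibitor of PP1, had the lowest p of the F test over the 5 groups (adjusted p = 0.674). It was lowest after conditioning under isoflurane, at 8.86, 8.71, 9.09, 8.62 and 8.76. Conditioning arrays read 9.18, 9.20, 9.38, 9.05 and 9.33, isoflurane arrays 9.41, 9.41, 9.26, 9.26 and 8.86, and baseline arrays 8.67 to 9.43 with a median of 9.21. All but 1 of the arrays under conditioning with isoflurane lay below all conditioning arrays. Differences were -0.34 from baseline (SE 0.12, adjusted p = 0.624), -0.42 from conditioning (SE 0.13, adjusted p = 0.9995) and -0.43 from isoflurane (SE 0.13, adjusted p = 0.998). After pain, isoflurane or conditioning alone it differed from baseline by 0.063, 0.091 and 0.081.

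Ppp1r15b, the constitutive PP1 subunit that directs PP1 to eIF2α, read 8.48, 8.33, 8.62, 8.57 and 8.39 after pain against 8.47 to 9.11 at baseline. None of the pain arrays reached the baseline mean of 8.75, and the difference was -0.27 (SE 0.11, adjusted p = 0.499). Conditioning arrays read 9.08, 8.83, 8.44, 8.79 and 9.06, which is 0.36 above pain (SE 0.13, adjusted p = 0.463), and conditioning under isoflurane differed from them by -0.26 (adjusted p = 0.9995). The stress-induced partner Ppp1r15a differed from baseline by -0.042 to 0.054 in the 4 groups. Ppp1r9b, spinophilin, which holds PP1 in dendritic spines, averaged 10.75 ± 0.31 (SD, n = 9) at baseline and 10.66 to 10.84 in the treated groups. Of the 23 tested probe sets of PP1 regulatory subunits, 9, 11, 13 and 12 were higher than baseline after pain, isoflurane, conditioning and conditioning under isoflurane.

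**Figure D3:**
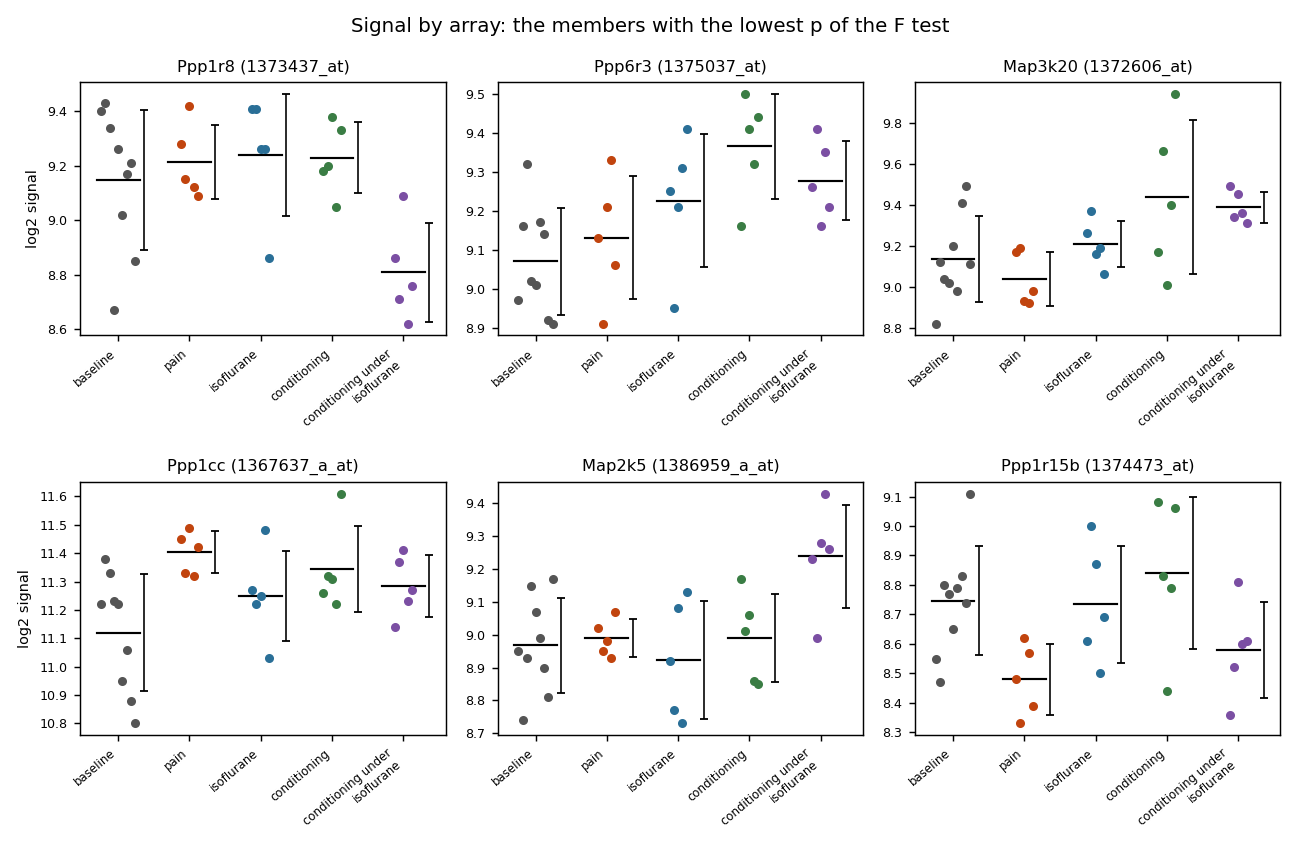
Log2 signal of each of the 29 arrays (points) for the 6 members with the lowest p of the F test over the 5 groups, with the group mean (line) and SD (bar); n = 9 at baseline and 5 in each other group, and each vertical axis has its own range. Ppp1r8 is lowest and Map2k5 highest after conditioning under isoflurane (means 8.81 and 9.24), and Ppp1r15b is lowest after pain (mean 8.48); all 6 have an adjusted p of 0.674.

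PP2A subunits had 12 of 14 probe sets below baseline after pain (median -0.055), where 66 of all 100 members were lower. The direction depended on pain replicate 3. Without it Ppp2r2b (0.012), Ppp2r1a (0.011), Ppp2r5e (0.032) and Ppp2r5c on 1373384_at (0.055) lay above baseline. Others, such as Ppp2r5d (-0.088) and Ppp2r5a (-0.087), stayed below it. With all arrays 1 of 14 was at an unadjusted p under 0.05. That one was Ppp2r5b, a B56-type subunit, which read 9.92, 9.89, 10.00, 10.29 and 9.85 after pain against 9.97 to 10.52 at baseline. Replicate 4 was the only pain array above the baseline mean of 10.23, and the difference was -0.24 (SE 0.091, adjusted p = 0.473). It was -0.19 after isoflurane, -0.13 after conditioning and -0.20 after conditioning under isoflurane. Ppp2r2b, a brain B55-type subunit, read 11.61, 11.54, 11.64, 11.72 and 11.41 after conditioning and 11.58 to 11.87 at baseline, a difference of -0.15 (SE 0.070, adjusted p = 0.478), with 0 of 5 arrays above the baseline mean.

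Ppp2r2d, the B55-type subunit whose promoter carries the CRE shown above, stood at 9.31, 9.68, 9.17, 9.32 and 9.45 after conditioning under isoflurane, and at 9.49 to 9.84 at baseline. Replicate 2 lay inside the baseline range and the other 4 below it. Differences were -0.26 from baseline (SE 0.096, adjusted p = 0.670) and -0.22 from isoflurane (SE 0.11, adjusted p = 0.998). Ppp2r5d, another B56-type subunit, did not overlap between conditioning (9.62, 9.31, 9.43, 9.39, 9.33) and pain (9.18, 9.31, 9.22, 9.31, 8.81), though the nearest arrays are equal to 2 decimals, with a difference of 0.25 (SE 0.12, adjusted p = 0.532), and 0.16 without pain replicate 5. The catalytic subunit Ppp2ca read 10.38, 10.47, 10.43, 10.29 and 11.08 after pain against 10.01 to 10.64 at baseline, where replicate 5 alone lay above the baseline range.

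Calcineurin, the calcium-dependent phosphatase, had 6 tested probe sets, and all 6 were lower after pain than at baseline (median -0.084, 1 at an unadjusted p under 0.05). The probe sets of the catalytic subunits Ppp3ca and Ppp3cb lay within 0.25 of baseline in all 4 treated groups. Ppp3ca had the least variable probe set of all members, 1373479_at, with a residual SD of 0.106 and group means of 12.53 at baseline, 12.49 after pain, 12.54 after isoflurane, 12.52 after conditioning and 12.55 after conditioning under isoflurane. On its other probe set, 1368277_at, the conditioning arrays read 12.56, 12.44, 12.46, 12.51 and 12.65 against 11.75 to 12.65 at baseline, a difference of 0.25 (SE 0.12, adjusted p = 0.488) where 1373479_at gave -0.006.

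Ppp3r1, the calcium-binding B subunit of calcineurin, was negative in all 4 comparisons with baseline on probe set 1369152_at: -0.62 after pain, -0.64 after isoflurane, -0.65 after conditioning (SE 0.31, adjusted p = 0.488) and -0.50 after conditioning under isoflurane. Its arrays read 9.65, 9.22, 7.94, 9.47 and 9.24 after pain, 9.66, 7.45, 9.44, 9.21 and 9.67 after isoflurane, and 8.07, 9.07, 9.76, 9.04 and 9.46 after conditioning, against 9.29 to 10.45 at baseline. In the groups after pain, isoflurane and conditioning 1 array lay far below the others. Without pain replicate 3 the difference after pain was -0.33, and without isoflurane replicate 2 the difference after isoflurane was -0.23. Without conditioning replicate 1 the difference after conditioning was -0.40. The brighter probe set 1372982_at gave -0.14, -0.066, -0.065 and -0.032 in the same 4 comparisons.

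**Figure D4:**
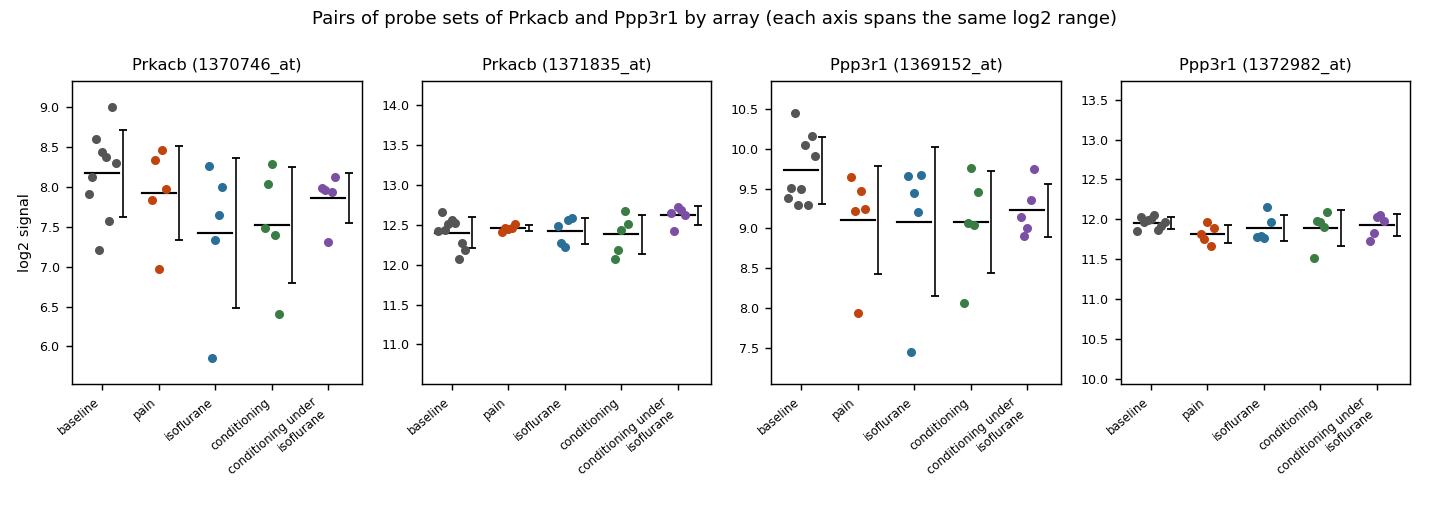
Log2 signal of each array (points) with group mean (line) and SD (bar) for both probe sets of Prkacb and of Ppp3r1; n = 9 at baseline and 5 in each other group, and the 4 vertical axes span the same log2 range. The dimmer probe set of each gene (1370746_at and 1369152_at) spreads widely, down to 5.85 and 7.45 in isoflurane replicate 2, while the brighter one stays within a narrow band.

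In all, 13 genes had more than 1 tested probe set, 27 in total. The probe sets of a gene had the same sign in 10 of the 13 genes after pain, 9 after isoflurane, 7 after conditioning and 8 after conditioning under isoflurane. The widest gap between probe sets of a gene was 0.77 in the comparisons of 2 groups, for Prkacb after isoflurane, and 0.87 in the interaction, again for Prkacb, and the median gap ranged from 0.074 to 0.23 over the comparisons.

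PP4, PP5 and PP6 had 9 tested probe sets, of which 7 were below baseline after pain (median -0.12) and 3 at an unadjusted p under 0.05: Ppp4r3b (-0.33, 1 of 2 probe sets), Ppp4r2 (-0.29) and Ppp6c (-0.39), the regulatory subunits of PP4 and the catalytic subunit of PP6. Ppp6c also stood at -0.37 after isoflurane (adjusted p = 0.928), and at -0.23 without isoflurane replicate 2. After pain Ppp6c was -0.14 without pain replicate 3, and without pain replicate 4 Ppp4r2 was -0.17 and Ppp4r3b -0.22. Against pain, 8 of the 9 were higher after conditioning (median 0.15, 2 at an unadjusted p under 0.05). Ppp6r3, a regulatory subunit of PP6, had the lowest p of all members after conditioning. It read 9.16, 9.50, 9.41, 9.32 and 9.44 against 8.91 to 9.32 at baseline, so that 5 of 5 arrays lay above the baseline mean of 9.07 and 3 above every baseline array. The difference was 0.29 (SE 0.088, adjusted p = 0.415). It was 0.21 after conditioning under isoflurane (adjusted p = 0.717), 0.16 after isoflurane and 0.060 after pain.

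No member's arrays were fully separate from baseline in any treated group. Groups without overlap with baseline were found for 0.116% of all probe sets after pain, 0.137% after isoflurane, 0.116% after conditioning and 0.221% after conditioning under isoflurane, and for 0 of the 100 members in each.

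The interaction asks whether the difference made by conditioning was the same with and without isoflurane, by subtracting the difference between conditioning and baseline from that between both isoflurane groups. The median of the members was 0.077 with 69 of 100 positive, beside 0.003 and 50.8% over all probe sets. Ppp1r8 had the lowest p, at -0.51 (SE 0.17, adjusted p = 0.959). Prkacb had the largest value on its dim probe set, at 1.09 (SE 0.49), and 0.22 on its bright one. Without isoflurane replicate 2 the former was 0.70 (SE 0.43). Map3k1 stood at -0.62 (SE 0.26, 1375673_at), Mapk8ip1 at 0.27 (SE 0.11, 1387971_a_at), Map2k5 at 0.29 (SE 0.13) and Prkci at 0.40 (SE 0.19, 1373047_at), all with a limma adjusted p of 0.959. On their other tested probe sets Map3k1 gave -0.40, Mapk8ip1 0.20 and Prkci -0.062, the last in the other direction. The group given isoflurane alone was deposited under later sample numbers than all others. Whatever goes with that cannot be told apart from the interaction. The same holds for isoflurane minus baseline and for conditioning under isoflurane minus isoflurane.

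**Figure D5:**
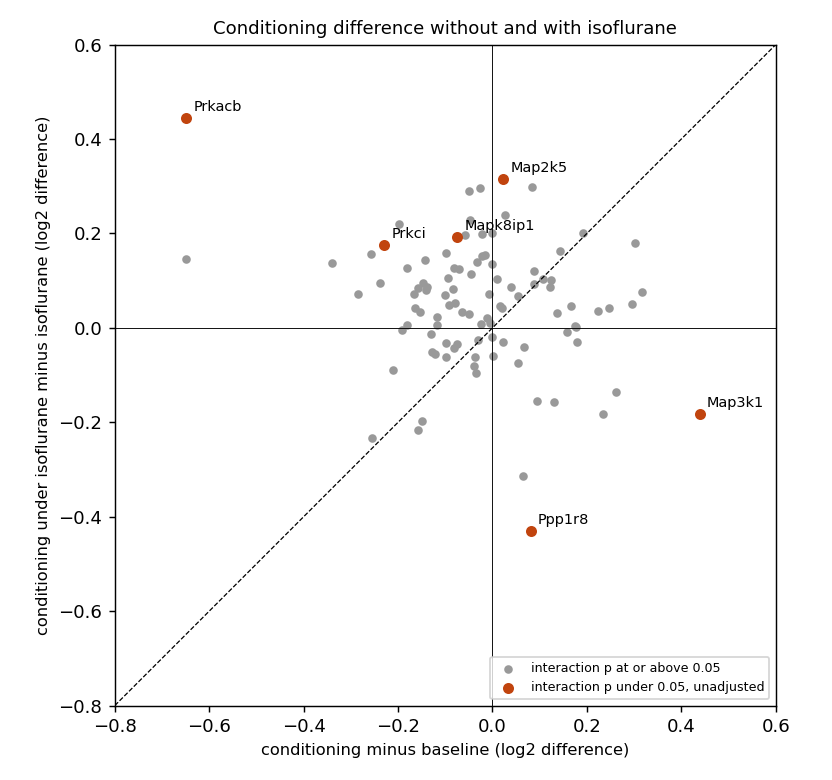
Log2 difference of each of the 100 tested probe sets for conditioning minus baseline (horizontal) and for conditioning under isoflurane minus isoflurane (vertical), with a dashed line of equality; the 6 orange points have an unadjusted interaction p under 0.05. Ppp1r8 and Map3k1 (probe set 1375673_at) lie below the line, and Prkacb (1370746_at), Prkci (1373047_at), Mapk8ip1 (1387971_a_at) and Map2k5 above it. The limma adjusted p of these 6 is 0.959.

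Genes around these enzymes, in lists drawn up from general knowledge, gave no call either. Of the PKA anchors and inhibitors 9 of 16 genes could be tested (12 probe sets), of the Ras and Raf genes with the kinases after ERK 13 of 23 (17 probe sets), of the MAP kinase phosphatases 7 of 15 (8 probe sets), of the phospholipase C and diacylglycerol genes 18 of 26 (23 probe sets) and of the calcineurin partners 7 of 11 (11 probe sets). After adjustment 0 of their probe sets were called in any comparison. In conditioning minus baseline 5 of 12, 6 of 17, 1 of 8, 11 of 23 and 4 of 11 were higher, with medians of -0.054, -0.087, -0.104, -0.001 and -0.014. The dual-specificity and tyrosine phosphatases that switch off MAP kinases therefore lay below baseline in 7 of 8 probe sets after conditioning, with 0 of 8 at an unadjusted p under 0.05.

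Markers of other cells were counted in the same way, with 0 called after adjustment in the comparisons given here. All 15 probe sets of oligodendrocyte genes were higher after conditioning than at baseline (median 0.32, 8 at an unadjusted p under 0.05), as were all 17 of astrocyte genes (median 0.17, 7 at that p), while all 9 of striatal genes were lower (median -0.39, 4 at that p). Oligodendrocyte scores, the mean deviation of the list from its average over arrays, ran from -0.11 to 0.49 after conditioning and from -0.38 to 0.24 at baseline, so the ranges overlapped. Astrocyte scores ran from -0.052 to 0.48 and from -0.28 to 0.097. Striatal scores ran from -0.60 to 0.39 and from -0.34 to 1.24. In conditioning under isoflurane minus conditioning all 15 oligodendrocyte probe sets were lower (median -0.27) and all 9 striatal ones higher (median 0.33). In conditioning minus pain all 15 oligodendrocyte probe sets were higher (median 0.24, 3 at an unadjusted p under 0.05) and 8 of 9 GABAergic ones lower (median -0.20). In the interaction 14 of 15 oligodendrocyte probe sets were lower (median -0.32) and 9 of 9 striatal ones higher (median 0.43). Microglial genes were higher after conditioning in 7 of 8 probe sets (median 0.19), GABAergic neuron genes lower in 7 of 9 (median -0.27), and excitatory neuron genes higher in 5 of 9 (median 0). Vascular genes were higher than at baseline in 4 of 4 probe sets after pain (median 0.15, 0 at an unadjusted p under 0.05). After conditioning under isoflurane 4 of 4 were higher too (median 0.348, 3 at that p). In 3 of 4 they were higher after conditioning (median 0.215, 1 at that p) and after isoflurane (median 0.102, 0 at that p). The blood gene Hbb differed by -1.20 after pain, with scores of -1.33 to -0.64 against -0.50 to 1.06 at baseline. Choroid plexus genes were read by 2 probe sets, 1 higher and 1 lower after conditioning. The part of these cells in the values of Map3k1, Map3k20, Ppp6r3, Ppp1cc and the other members was not tested.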

How the data were processed

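The values are the signals that the authors deposited for 29 arrays, as linear intensity scaled to a trimmed mean near 500.1 per array; the software is not given in the sources used here. Signals were quantile normalised over the arrays, log2-transformed after values under 16 were set to 16. Of 15923 probe sets, 57 controls were left out; 12783 had 1 symbol, 312 several and 2771 none, and 3 probe sets of this gene set with several symbols were not used. Each probe set was fitted with limma 3.58.1 (R 4.3.3; lmFit, eBayes with a variance trend) with 1 mean per group, for 7 comparisons, the interaction and a moderated F test on 4 degrees of freedom, adjusted by Benjamini-Hochberg over the 9520 tested, with a threshold of 0.05; all p-values are two-sided. The fit was tested on simulated data.

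The members, roles, lists and tests were chosen with earlier results of these data known. Named were, in each comparison, the 2 higher and 2 lower members with the lowest p, the 6 with the lowest F p, and fixed anchors of each cascade whatever their values; Map2k3, Prkab1, Map3k1 on 1368871_at, Ppp2r5d, Mapk4, Mapk6, Mapk9, Mapk12, the PP4 and PP6 genes other than Ppp6r3, and the genes with a CRE were chosen after their values were seen. Replicate numbers are shared between groups but not stated to pair arrays; deviations of arrays with the same number correlated from -0.238 to 0.259 (median -0.011), so no block was used in the main fit. No 2 arrays were identical (highest correlation 0.977). Alternatives were the deposited scaling, centring on medians, a floor of 64, no filter, a filter at the 70th percentile, a replicate block, no variance trend, only the groups compared, and leaving out each array. The fit with a replicate block used replicates 1 to 5 of each group, so baseline replicates 6 to 9 were not in it.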

Additional observations from a re-analysis of the deposited data

Results flagged for a closer look

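Over 37 named probe sets and 5 groups, 16 of 185 sets of arrays had an array that stood apart from the rest of its group by Dixon's criterion, where about 1 in 20 would by chance. Pain replicate 3 was the lowest of its group for Map3k1 (6.65 on 1375673_at), Ppp3r1 (7.94) and Ppp1ca (11.46), and it also had the highest array median. Pain replicate 1 was lowest for Prkaca (9.87) and Ppp1r9b (10.49), and pain replicate 5 lowest for Mapk14 (8.86) and highest for Ppp2ca (11.08).

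Isoflurane replicate 2 was lowest for Ppp3r1 (7.45) and Prkcz (9.79), isoflurane replicate 4 highest for Ppp1cb (10.80), and isoflurane replicate 5 highest for Mapk8ip1 (11.22) and lowest for Ppp1r8 (8.86). In the conditioning group, replicate 5 was highest for Ppp1cc (11.61) and replicate 4 lowest for Prkci (7.10 on 1371203_at). Under isoflurane, conditioning replicate 3 was lowest for Prkacb (7.31 on 1370746_at) and replicate 5 highest for Prkci (8.16 on 1371203_at).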

How the results depend on the processing

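Limma called 0 members in every comparison under every alternative, the replicate block included (0 in each), and without any single array. The 32 named differences kept their sign and stayed above the threshold in all 1174 refits. Counts at unadjusted p under 0.05 did move. With arrays centred on their medians, pain minus baseline had 19 members in place of 10, and the median difference of all probe sets was -0.111. Of the 10 probe sets then called in that comparison, 0 were members. With a replicate block, fitted without baseline replicates 6 to 9, the counts were 4 after pain and 2 after isoflurane (from 8). They were 4 after conditioning under isoflurane (from 8) and 4 in the F test (from 7). Leaving out 1 array moved the isoflurane count to 4 (baseline replicate 6, 7 or 8, isoflurane replicate 2) or 5 (baseline replicate 3, isoflurane replicate 4). Other counts that moved by over 1.5 times were, after pain, 4 with the 70th percentile filter and 6 without baseline replicate 6. After conditioning (7) they were 11 with median centring, 4 without baseline replicate 8 and 13 without conditioning replicate 3. After conditioning under isoflurane (8) they were 5 with median centring and 5 without baseline replicate 7 or replicate 2, 3 or 4 of that group. Conditioning minus pain (10) had 5 with only its groups fitted, and conditioning under isoflurane minus conditioning (4) had 2 without conditioning replicate 5. Conditioning under isoflurane minus isoflurane (4) had 2 with median centring, 2 without replicate 3 of the former or isoflurane replicate 1 or 3, and 10 without isoflurane replicate 5. The interaction (6) had 10 with no filter and without isoflurane replicate 5, 13 without conditioning replicate 3, and 3 without replicate 5 of either conditioning group; the F test had 4 without replicate 4 of conditioning under isoflurane. Of the named differences, 5 moved by over 1.5 times with another setting: those of Ppp1cc and Prkacb given in the report, Ppp2r5b after pain (-0.39 with median centring), Ppp1r15b after pain (-0.17 with the replicate block) and Ppp2r2b after conditioning (-0.29 and -0.096 with these). The causes were not tested.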
